A study of Mus musculus with 12 samples.

Results

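The genes described are 35 members of glycolysis and of the response to low oxygen, chosen by symbol from a table of 56941 genes and followed across 4 groups of CD8+ T cells from mouse tumours. Of these, 23 encode glycolytic enzymes and transporters, 11 are targets of hypoxia-inducible factor (HIF) outside glycolysis, and 1 is Hif1a, which encodes the oxygen-regulated subunit of HIF-1. The 35 symbols matched 36 rows, since Aldoa has 2 gene IDs: the main one is described, and the second, at 0.204 to 1.26 CPM, is left out of the counts. All 35 passed the expression filter and were among the 18657 genes tested.

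The cells were taken from tumours of wild type C57BL/6J mice made with Panc02, a murine pancreatic cancer line. They were sorted as DAPI- CD45.2+ CD8+ cells without or with surface asGM1 (asialo-GM1, a glycolipid), and the tumours had been given an isotype ctrl antibody or anti-PD-1, which blocks an inhibitory receptor of T cells. The 4 groups are thus asGM1-negative and asGM1-positive cells under isotype and under anti-PD-1, with 3 libraries each. The labels do not say whether replicates are separate mice, so the p-values set each difference against a spread among libraries that could be technical in part.

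Glycolysis splits glucose into pyruvate, and activated T cells run it at a high rate and turn much of the pyruvate into lactate. When oxygen is scarce, prolyl hydroxylases no longer mark the HIF-1 alpha protein for destruction, and the stabilised factor raises transcription of glycolytic genes and of other targets, among them those for the growth factor VEGF-A and the mitophagy receptor BNIP3. In T cells HIF1A also acts downstream of the antigen receptor and of mTOR, without a lack of oxygen. HIF-1 is regulated mainly through its protein, so the RNA level of Hif1a is not a measure of its activity.

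The libraries held 58.1 to 73.2 M counts each. A count of 3, the most that an observed 0 allows at 95% confidence (counting error only), corresponded to 0.0406 to 0.0524 CPM, where CPM are library-scaled counts that use edgeR's TMM factors. The sorted marker Cd8a was at 1591 to 2581 CPM and the T cell receptor subunit gene Cd3e at 1018 to 1300.2 CPM over the 12 libraries. Both anti-PD-1 replicate 2 libraries stood apart in heat shock RNA: Hspa1a, a heat shock chaperone gene, read 151 and 146 CPM, where the other 4 anti-PD-1 libraries read 22.5 to 32.6 and the isotype libraries 188 to 440.3 CPM. Summed CPM of 10 macrophage and monocyte markers were 52.3 to 89.7 in asGM1-negative and 160 to 294 in asGM1-positive libraries, so these markers move with the population. The summed level of 6 cell cycle genes was 1007 to 1191 under isotype and 572 to 684 under anti-PD-1 in asGM1-negative cells, and 1161 to 1296 and 978 to 1185 in asGM1-positive cells.

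Per length of merged exons, Ldha and the enzymes of the later steps were the most abundant members. Over the 12 libraries, Ldha (lactate dehydrogenase A, which turns pyruvate into lactate) averaged 1064 CPM per kb of exon and Aldoa (the main aldolase, which splits the sugar into trioses) 1040.2 CPM per kb. Eno1 (enolase) averaged 850.4, Pkm (pyruvate kinase) 714, Tpi1 (triosephosphate isomerase) 472 and Pgk1 (phosphoglycerate kinase) 332 CPM per kb. The highest HIF target outside glycolysis was Bnip3 at 104 CPM per kb, and Hif1a itself was at 87.4. The lowest members were Vegfa at 1.43 and Pfkfb4 at 0.329 CPM per kb. Gapdh (glyceraldehyde-3-phosphate dehydrogenase) averaged only 53.2 CPM per kb, and its value is uncertain: rows of near-identical pseudogenes share its sequence, and Gapdh-ps15 alone held 29.7 to 48.6% of the CPM of Gapdh. The like holds on a smaller scale for Eno1, Pgam1, Pgk1 and Bnip3l, whose copies Eno1b, Pgam1-ps2, Pgk1-rs7 and Bnip3l-ps were at 6.56 to 7.52%, 15.5 to 17.9%, 4.74 to 5.45% and 14.4 to 17.3% of them. Merged exons, 4133 bases for Gapdh and 13401 for Pfkp, can be longer than the transcript present, which lowers the level per kb. How far this alters the order of genes and the shares per exon length was not tested.

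**Figure D1:**
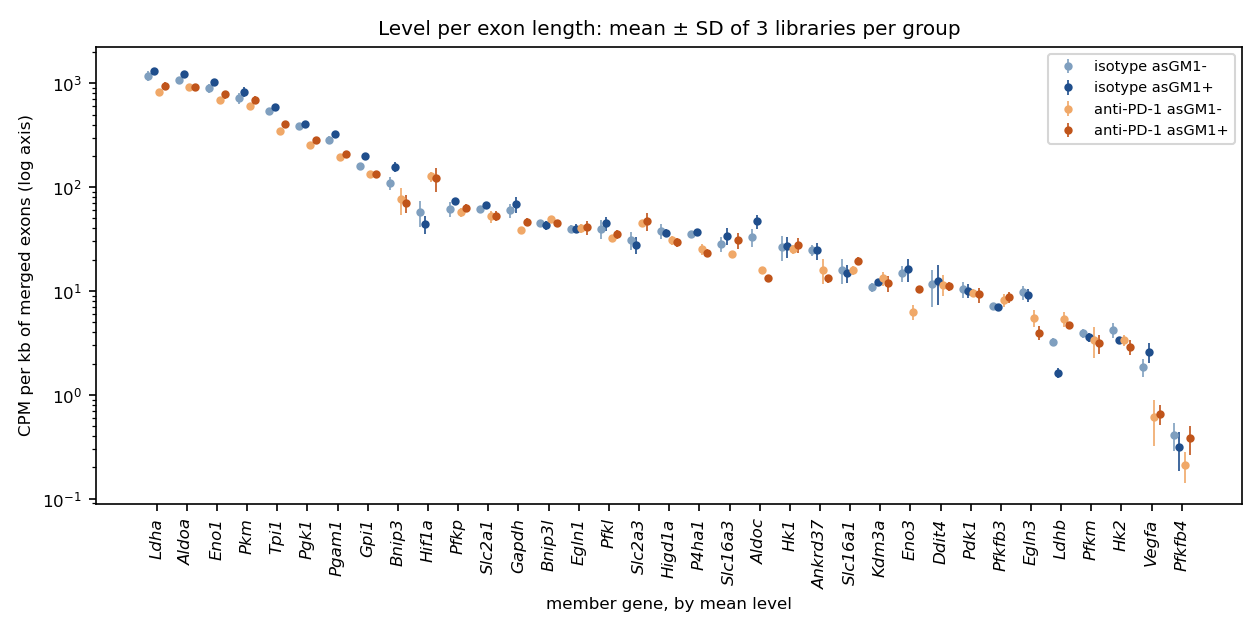
Level of each member as CPM per kb of merged exons on a log axis, with the mean and SD of 3 libraries per group and genes ordered by their mean over 12 libraries. Ldha and Aldoa stand highest at 1064 and 1040.2 CPM per kb and Pfkfb4 lowest at 0.329, and for Hif1a, Slc2a3 and Ldhb both anti-PD-1 points lie above both isotype points.

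The first comparison asks how both populations respond to PD-1 inhibition. Under anti-PD-1, Hif1a RNA was higher than under isotype in both populations, while most glycolytic enzymes from aldolase onwards, Ldha and 3 HIF targets (Egln3, P4ha1 and Vegfa) were lower in both. In asGM1-negative cells 2 members rose and 11 fell of 35, where 4.11% of all genes tested rose and 4.45% fell. In asGM1-positive cells 3 rose and 14 fell, beside 3.72% and 3.01% of all genes. The 13 calls in asGM1-negative cells came to 8 without isotype asGM1-negative replicate 1 and to 8 without both anti-PD-1 replicate 2 libraries, a fit that called 4.05% of all genes. Calls are edgeR quasi-likelihood tests at a Benjamini-Hochberg adjusted p under 0.05 over all 18657 genes, and changes are log2 fold changes ± SE. In bulk RNA, fewer cells of a type and less RNA per cell cannot be told apart.

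Of the members past the threshold, 12 passed in both populations, which is 92.3% of the 13 calls in asGM1-negative and 70.6% of the 17 in asGM1-positive cells. Eno3 passed in asGM1-negative cells alone, and Slc2a3, Gpi1, Aldoa, Bnip3 and Ankrd37 in asGM1-positive cells alone, and 17 members passed in neither. The heat map of members by library shows both directions.

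**Figure D2:**
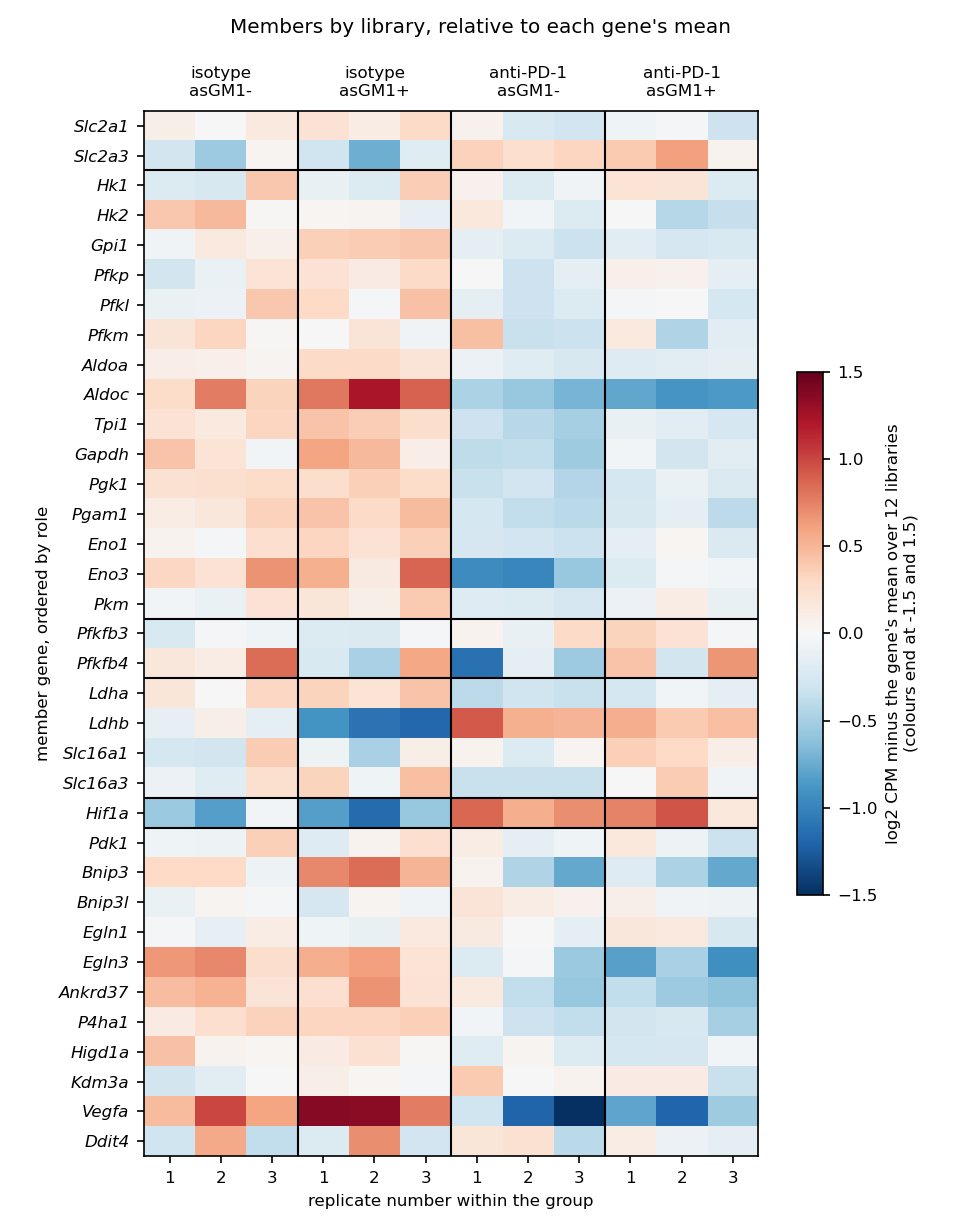
Heat map of log2 CPM of the 35 members minus each gene's mean over 12 libraries, with libraries in columns by group and replicate and genes in rows by role; colours end at -1.5 and 1.5. Hif1a, Slc2a3 and Ldhb are red in the anti-PD-1 columns, while Aldoc, Egln3 and Vegfa are blue there.

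The 2 glucose transporters moved apart. Slc2a3, which encodes the high-affinity transporter GLUT3, went from 219, 181 and 272 CPM under isotype to 336, 315 and 329 CPM under anti-PD-1 in asGM1-negative cells. The asGM1-positive libraries went from 215, 158 and 233 to 345, 405 and 274 CPM. All 6 anti-PD-1 libraries were above all 6 isotype ones. The change passed in asGM1-positive libraries (0.76 ± 0.18, edgeR adjusted p = 0.0281) and not in asGM1-negative ones (0.55 ± 0.18, adjusted p = 0.0875). That call ended in 6 of 20 alternative fits, at adjusted p = 0.0617 to 0.152: without isotype asGM1-positive replicate 1 or 2, anti-PD-1 asGM1-positive replicate 1 or 2 or both anti-PD-1 replicate 2 libraries, and with only the compared libraries in the fit.

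Slc2a1, for GLUT1, the basal and activation-induced glucose transporter, was at 215, 203 and 225 CPM under isotype and 211, 173 and 167 CPM under anti-PD-1 in asGM1-negative cells. The asGM1-positive values were 236, 219 and 247 and 194, 199.9 and 163 CPM. The groups overlapped in asGM1-negative cells and lay apart in asGM1-positive cells, and neither change passed (-0.22 ± 0.11 and -0.33 ± 0.11). Per exon length, Slc2a3 made up 33.3 ± 3.41% of the sum of both transporters in isotype asGM1-negative and 29.3 ± 2.94% in isotype asGM1-positive cells (SD, n = 3). Under anti-PD-1 the share was 46.4 ± 2.71% and 46.9 ± 2.39%, with no overlap between treatments in either population.

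The enzymes of the first steps did not pass, with 1 exception. The hexokinase genes Hk1 and Hk2, whose products trap glucose in the cell, ranged over 191 to 297 and 15.2 to 28.4 CPM, with changes of -0.08 ± 0.20 and -0.34 ± 0.16 in asGM1-negative and 0.03 ± 0.20 and -0.22 ± 0.16 in asGM1-positive cells. The phosphofructokinase genes Pfkp, Pfkl and Pfkm, for the committed step, ranged over 684 to 1035, 201 to 339.8 and 8.45 to 15.7 CPM. Their 6 changes lay between -0.35 and -0.11, and none passed. The libraries nevertheless lay apart for Pfkl in asGM1-negative cells, at 233 to 329.6 CPM under isotype and 201 to 227 CPM under anti-PD-1, and for Pfkp in asGM1-positive cells, at 928 to 1035 and 768 to 896 CPM. Gpi1, for the glucose-6-phosphate isomerase between these steps, is the exception. It was at 1269, 1298 and 1316 CPM in isotype and 882, 834 and 848 CPM in anti-PD-1 libraries of asGM1-positive cells (-0.60 ± 0.08, edgeR adjusted p = 0.00127). In asGM1-negative cells it was at 955, 1102 and 1045 and 908, 866 and 798 CPM, also without overlap, and did not pass (-0.27 ± 0.08, adjusted p = 0.0629).

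From aldolase to pyruvate kinase the 9 enzyme genes all had lower fitted levels under anti-PD-1 in both populations, and 7 of them passed in each. Aldoc, an aldolase isozyme best known from brain, had the largest fall among the glycolytic members in asGM1-positive cells, and Eno3 in asGM1-negative cells. Aldoc was at 94.0, 132 and 97.2 CPM in isotype and 55.5, 52.1 and 47.8 CPM in anti-PD-1 libraries of asGM1-negative cells (-1.06 ± 0.14, edgeR adjusted p = 0.00158). In asGM1-positive cells the values were 134, 181 and 143 and 45.0, 41.9 and 42.5 CPM (-1.82 ± 0.15, adjusted p = 4.66e-05), which is 3.54-fold lower. The treatments lay far apart in both populations. Aldoc was a small part of aldolase RNA: per exon length it made up 2.95 ± 0.559% of the sum with Aldoa in isotype asGM1-negative and 1.41 ± 0.0787% in anti-PD-1 asGM1-positive cells.

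Aldoa was at 3677, 3652 and 3429 CPM in isotype and 2626, 2698 and 2732 CPM in anti-PD-1 libraries of asGM1-positive cells and passed there (-0.42 ± 0.07, edgeR adjusted p = 0.00601; 0.0543 with only the compared libraries in the fit). In asGM1-negative cells it was at 3224, 3167 and 3096 and 2825, 2657 and 2553 CPM, lay apart as well and did not pass (-0.24 ± 0.07, adjusted p = 0.0668). Tpi1, whose enzyme interconverts the triose phosphates, was at 1471, 1410.3 and 1582 CPM under isotype and 1027, 954 and 900.0 CPM under anti-PD-1 in asGM1-negative cells. Its asGM1-positive values were 1708, 1636 and 1529 and 1171, 1136 and 1066 CPM. Tpi1 thus fell by similar amounts in both, with changes of -0.63 ± 0.09 and -0.53 ± 0.09 (adjusted p = 0.00152 and 0.00348).

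Pgk1, whose enzyme makes the first ATP of the pathway, was at 859, 859 and 883 CPM under isotype and 579, 599 and 537 CPM under anti-PD-1 in asGM1-negative cells. In asGM1-positive cells it went from 877, 937 and 885 to 607, 679.7 and 628 CPM. Its replicates were close together and the treatments lay apart, and both falls passed (-0.60 ± 0.08 and -0.50 ± 0.08, edgeR adjusted p = 0.00113 and 0.00288). In asGM1-negative cells, Pgam1, for phosphoglycerate mutase, went from 529, 554 and 624 under isotype to 407, 381 and 370.1 CPM under anti-PD-1, and in asGM1-positive cells from 659, 601 and 685 to 415, 442 and 374 CPM. It fell by 0.56 and 0.66 on the log2 scale (SE 0.10 each, adjusted p = 0.00479 and 0.00190). The falls of Aldoc, Tpi1, Pgk1 and Pgam1 passed in both populations under all 20 alternative fits tried.

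Gapdh, for the enzyme that yields NADH, was at 287, 245 and 207 CPM in isotype and 164, 165 and 148 CPM in anti-PD-1 asGM1-negative libraries. The asGM1-positive values were 322, 299 and 229 and 208, 177 and 190.0 CPM. Both falls passed narrowly (-0.63 ± 0.14 and -0.56 ± 0.14, edgeR adjusted p = 0.0186 and 0.0353). The first ended in 5 of 20 alternative fits (adjusted p = 0.0511 to 0.0874), without isotype asGM1-negative replicate 1, any 1 of the anti-PD-1 asGM1-negative libraries or both anti-PD-1 replicate 2 libraries. The second ended in 12 of 20 (0.0525 to 0.177), among them without isotype asGM1-negative replicate 2, isotype asGM1-positive replicate 1 or 2, or any single anti-PD-1 library.

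Eno1, the main enolase, which makes phosphoenolpyruvate, was at 4701, 4450.2 and 5379 CPM in isotype and 3789, 3693 and 3608 CPM in anti-PD-1 asGM1-negative libraries. In the asGM1-positive population it was at 5627, 5262 and 5794 and 4108, 4592 and 3890.1 CPM. The treatments did not overlap, and the falls of -0.39 and -0.41 (SE 0.09 each) passed at edgeR adjusted p = 0.0263 and 0.0254. They ended in 6 of 20 alternative fits in asGM1-negative cells (adjusted p = 0.0635 to 0.111; isotype replicate 1 or 3, each anti-PD-1 library, or both anti-PD-1 replicate 2 libraries left out). In asGM1-positive cells they ended in 5 (0.0686 to 0.0921; replicate 1 or 3 of either treatment left out, or only the compared libraries fitted).

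Eno3, the enolase isozyme of muscle, was at 24.1, 22.5 and 31.1 CPM in isotype and 10.1, 9.82 and 13.1 CPM in anti-PD-1 asGM1-negative libraries (-1.24 ± 0.20, edgeR adjusted p = 0.00340). In asGM1-positive cells the values were 28.1, 21.3 and 35.5 and 16.9, 19.1 and 18.9 CPM, which lay apart and did not pass (-0.63 ± 0.19, adjusted p = 0.0795). Pkm, whose enzyme makes pyruvate, was at 3431, 3315 and 4104 and 3109, 3073 and 2976 CPM in asGM1-negative cells, without overlap. Its asGM1-positive values, 4006, 3752 and 4653 and 3336, 3838 and 3275 CPM, overlapped. Pkm passed in neither (-0.24 ± 0.11 and -0.25 ± 0.11, adjusted p = 0.213 and 0.224).

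Among the lactate genes, the 2 subunits of lactate dehydrogenase went opposite ways. Ldha was at 3909.7, 3487 and 4302 CPM under isotype and 2637, 2818 and 2744 CPM under anti-PD-1 in asGM1-negative cells. Among asGM1-positive libraries it was at 4364, 3975 and 4650.3 and 2871, 3359 and 3158 CPM. It fell in both (-0.51 ± 0.10 and -0.47 ± 0.10, edgeR adjusted p = 0.00963 and 0.0170). The second call ended in 4 of 20 alternative fits (0.0535 to 0.0694), without asGM1-positive isotype replicate 1 or 3 or anti-PD-1 replicate 1, and with only the compared libraries fitted.

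Ldhb, for the subunit that favours the turn from lactate to pyruvate, was at 4.86, 5.64 and 4.81 CPM under isotype and 10.1, 7.68 and 7.57 CPM under anti-PD-1 in asGM1-negative cells. In asGM1-positive cells it rose from 2.86, 2.47 and 2.35 to 7.74, 6.97 and 7.29 CPM. The treatments did not overlap, and Ldhb rose in both populations (0.73 ± 0.17 and 1.52 ± 0.17, edgeR adjusted p = 0.0229 and 0.000417). In asGM1-negative cells this call ended in 5 of 20 alternative fits (0.0534 to 0.109), without isotype replicate 1 or 3, anti-PD-1 replicate 1 or both anti-PD-1 replicate 2 libraries, and with only the compared libraries fitted. Ldhb remained a trace of lactate dehydrogenase RNA. Per exon length it was 0.125 ± 0.0164% of the sum with Ldha in isotype asGM1-positive and 0.495 ± 0.0656% in anti-PD-1 asGM1-positive cells.

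The lactate transporter genes Slc16a1 (MCT1) and Slc16a3 (MCT4, the exporter of highly glycolytic cells) passed in neither population. Slc16a3 was at 141, 133 and 178 CPM in isotype and 120.1, 120.0 and 119.6 CPM in anti-PD-1 asGM1-negative libraries. For asGM1-positive libraries the values were 190.2, 144 and 206 and 149.9, 197 and 146 CPM. Its changes were -0.33 ± 0.16 and -0.14 ± 0.16, and those of Slc16a1 -0.02 ± 0.19 and 0.40 ± 0.19. Pfkfb3 and Pfkfb4 make and remove fructose-2,6-bisphosphate, the activator of phosphofructokinase. They ranged over 49.5 to 73.1 and 0.689 to 2.68 CPM and did not pass (Pfkfb3 0.19 ± 0.13 and 0.32 ± 0.13; Pfkfb4 -0.96 ± 0.39 and 0.30 ± 0.38).

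Hif1a was at 311, 258 and 445 CPM in isotype and 833, 667 and 740.3 CPM in anti-PD-1 libraries of asGM1-negative cells. In asGM1-positive cells it was at 259, 206 and 308 and 768, 879.8 and 509.9 CPM. Every anti-PD-1 library was above every isotype library, the closest being 509.9 against 445 CPM. Hif1a rose 2.21-fold in asGM1-negative (1.14 ± 0.23, edgeR adjusted p = 0.0117) and 2.79-fold in asGM1-positive cells (1.48 ± 0.24, adjusted p = 0.00324). The first call was lost when isotype asGM1-negative replicate 1 was left out (0.0552), and the second held in all 20 alternative fits.

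The HIF targets outside glycolysis went the other way from Hif1a or did not pass: 3 of 11 fell in asGM1-negative and 5 of 11 in asGM1-positive cells. In both populations 6 had an unadjusted p under 0.05, all of them lower. Vegfa, for the growth factor of blood vessels, had the largest fall of all members. It was at 6.81, 9.79 and 7.41 CPM in isotype and 3.97, 2.13 and 1.68 CPM in anti-PD-1 libraries of asGM1-negative cells (-1.63 ± 0.32, edgeR adjusted p = 0.0100). In the asGM1-positive population it was at 12.6, 12.5 and 8.31 and 2.83, 2.15 and 3.38 CPM (-2.0 ± 0.32, 4.0-fold lower, adjusted p = 0.00368). The treatments did not overlap. Without both anti-PD-1 replicate 2 libraries the asGM1-negative call ended (0.0551).

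Egln3, for prolyl hydroxylase 3, a HIF target that itself acts on HIF-1 alpha, was at 27.5, 28.9 and 21.1 and 15.1, 17.3 and 11.9 CPM in isotype and anti-PD-1 asGM1-negative cells. Among asGM1-positive libraries it was at 25.6, 26.9 and 20.1 and 9.94, 12.5 and 9.29 CPM. It fell in both (-0.81 ± 0.19 and -1.20 ± 0.19, edgeR adjusted p = 0.0225 and 0.00333). The asGM1-negative call ended without replicate 1 or 2 of isotype or replicate 1 or 3 of anti-PD-1 (0.0735 to 0.106). Egln1, for prolyl hydroxylase 2, the main oxygen sensor, ranged over 121 to 161 CPM with changes of 0.02 ± 0.13 and 0.04 ± 0.13. Per exon length the share of Egln3 in their sum was 19.8 ± 3.79% and 18.7 ± 3.60% in isotype asGM1-negative and asGM1-positive cells, and 12.1 ± 1.60% and 8.86 ± 1.03% under anti-PD-1.

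P4ha1, for a prolyl hydroxylase of collagen, went from 133, 144 and 155 to 119, 98.2 and 94.4 CPM under treatment in asGM1-negative cells. Its asGM1-positive libraries held 152, 152 and 155 CPM under isotype and 100.2, 103 and 86.1 CPM under anti-PD-1. The treatments did not overlap, and it fell in both (-0.47 ± 0.11 and -0.67 ± 0.11, edgeR adjusted p = 0.0184 and 0.00326). The first call ended in 5 of 20 alternative fits (0.0503 to 0.0944), without replicate 2 or 3 of either treatment or both anti-PD-1 replicate 2 libraries. Ankrd37, an ankyrin repeat gene induced by hypoxia, was at 39.6, 41.3 and 32.8 and 32.0, 22.2 and 19.4 CPM in asGM1-negative cells and did not pass (-0.63 ± 0.19, adjusted p = 0.0639). In asGM1-positive cells it was at 34.2, 46.1 and 33.4 and 22.3, 19.7 and 18.9 CPM and fell (-0.90 ± 0.19, adjusted p = 0.0163). This call ended without asGM1-positive isotype replicate 2 or anti-PD-1 replicate 2 or 3, or both anti-PD-1 replicate 2 libraries (0.0512 to 0.0856).

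Bnip3 was at 271, 271 and 208 and 229, 160.3 and 129 CPM in isotype and anti-PD-1 asGM1-negative cells, which overlapped (-0.53 ± 0.21, edgeR adjusted p = 0.143). In the asGM1-positive population it was at 363, 393 and 314 and 193, 158 and 129 CPM, lay apart and fell 2.23-fold (-1.16 ± 0.21, adjusted p = 0.00666). Its relative Bnip3l, another mitophagy receptor gene, ranged over 147 to 199 CPM and did not pass (0.15 ± 0.09 and 0.08 ± 0.09). Higd1a, for a small mitochondrial inner membrane protein, had isotype and anti-PD-1 values of 137, 105 and 103 and of 89.1, 104 and 87.8 CPM in asGM1-negative cells, against 110.4, 119 and 102 and 83.9, 85.0 and 98.6 CPM in the other population, and passed in neither (-0.29 ± 0.13 and -0.31 ± 0.13). Nor did Pdk1, the kinase that keeps pyruvate out of the mitochondria (-0.11 ± 0.16 and -0.12 ± 0.16), the histone demethylase gene Kdm3a (0.30 ± 0.14 and -0.05 ± 0.14) or Ddit4, an inhibitor of mTORC1 (-0.00 ± 0.30 and -0.18 ± 0.30).

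**Figure D3:**
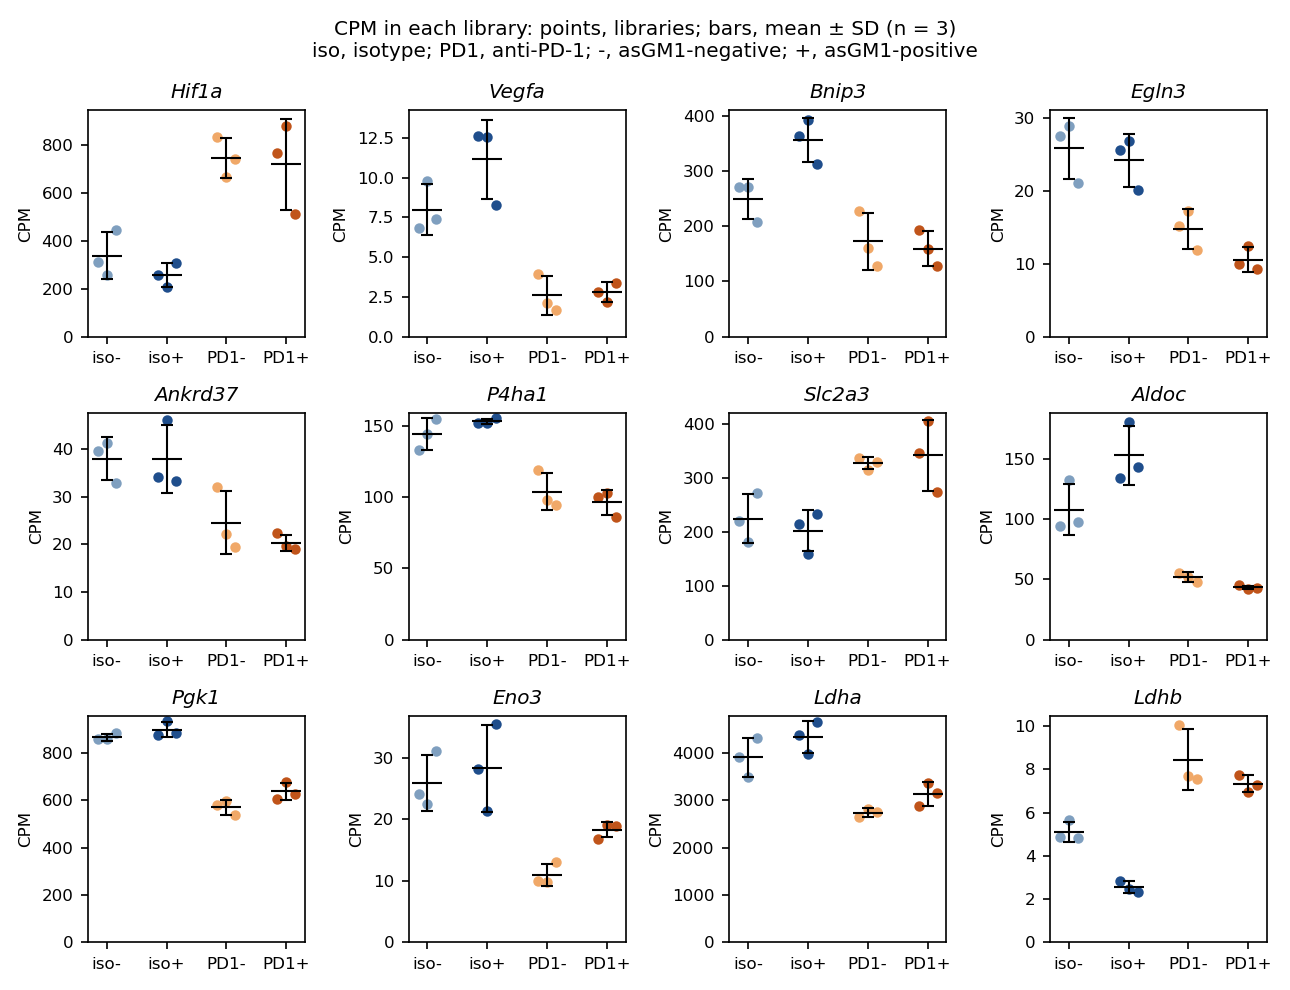
CPM of 12 members in each library, on axes from 0, with points for libraries and bars for the mean ± SD of 3. Hif1a, Slc2a3 and Ldhb are higher in the anti-PD-1 groups, the other 9 lower, and for Bnip3 the asGM1-negative groups overlap.

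Glycolytic members and HIF targets outside glycolysis had like medians. In asGM1-negative cells the median change was -0.31 over 23 glycolytic members (20 below 0) and -0.29 over 11 HIF targets (8 below 0), against -0.01 over all genes tested. Among asGM1-positive libraries it was -0.33 (17 below 0) and -0.31 (9 below 0), against -0.01. By call, 8 of 23 glycolytic members fell and 1 rose in asGM1-negative cells and 9 fell and 2 rose in asGM1-positive cells. Of 11 HIF targets, 3 and 5 fell. The members were lower without overlap for 18 of 35 in each population, where 15.8% and 12.2% of all genes were. They were higher without overlap for 4 in each, beside 14.5% and 11.8% of all genes.

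**Figure D4:**
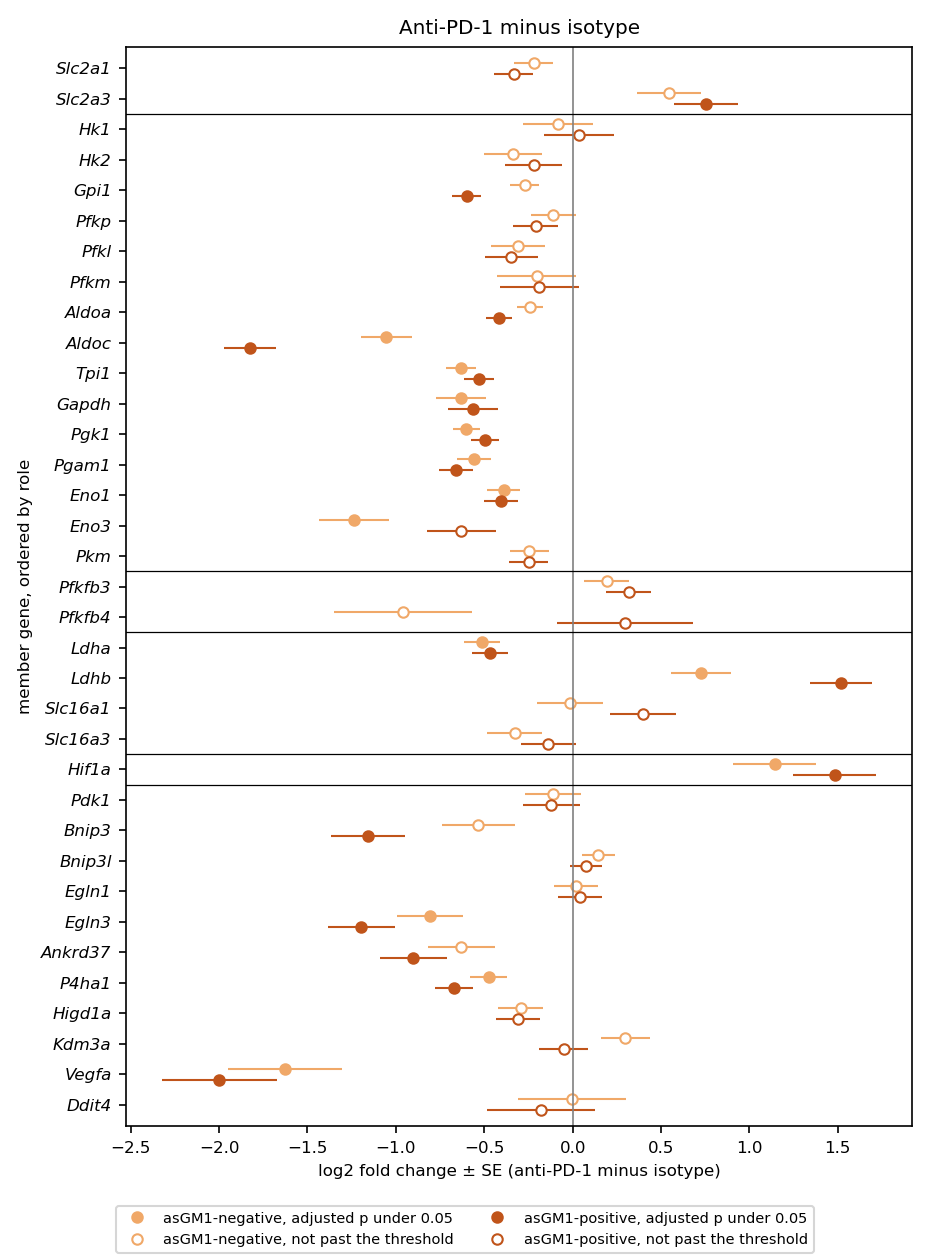
Log2 fold change ± SE of each member, anti-PD-1 minus isotype, in asGM1-negative (light) and asGM1-positive (dark) cells; filled points have an edgeR adjusted p under 0.05, and lines part the roles. Enzymes from Aldoa to Pkm lie left of 0 in both populations, and Hif1a, Ldhb and Slc2a3 lie right of it.

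Averaged over the populations, 3 members rose and 18 fell, beside 9.12% and 9.02% of all genes. Members that passed in this contrast alone were Slc2a1 (-0.28 ± 0.08, edgeR adjusted p = 0.0290), Pkm (-0.25 ± 0.08, 0.0484) and Higd1a (-0.30 ± 0.09, 0.0350). The average treats both libraries of a replicate number as separate, although within a treatment they tend to deviate together, less clearly for anti-PD-1 replicates 2 and 3. With the counts of each such pair summed, 3 members rose and 13 fell, where 3.83% and 3.4% of all genes did. Slc2a1 (adjusted p = 0.150), Aldoa (0.0593), Eno1 (0.0526), Pkm (0.238) and Higd1a (0.110) did not pass in that fit. Slc2a1, Pkm and Higd1a were also lost in 7, 9 and 7 of 12 fits that left out 1 library (adjusted p = 0.0554 to 0.0838, 0.0680 to 0.112 and 0.0663 to 0.0915), each time including isotype asGM1-negative replicate 1, isotype asGM1-positive replicate 1 and anti-PD-1 asGM1-negative replicate 3.

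Most members, whether or not they changed, hold the letters of the HIF core site upstream of their start. RefSeq start sites of build GRCm38.p6 were matched by symbol for 33 of 35 members, and the 250 bases before each start were searched for ACGTG or GCGTG on both strands. At least 1 match was found for 31 of 33 members (93.9%), where 58.8% of 11227 tested genes with a window and 41.5% of all 27025 genes with one had a match. Members that fell in the averaged contrast did not stand out within the list: 16 of 18 of them (88.9%) and 15 of the other 15 had a match. The 2 without one were Gpi1 and Tpi1, which both fell. A match is a description of letters and says nothing of binding in these cells. CACGTG, which holds ACGTG on both strands, was found for 6 of 33 (18.2%) and 9.37% of tested genes. Shown are 3 members that fell, 2 of them HIF targets and 1 enzyme, and Hif1a, which rose. Bnip3 and Ankrd37 held 5 and 4 matches and Pgk1 2, where the median of the members that fell was 2. Among those not shown, Egln3 had 1, Vegfa 0 and 2 in its windows, and Tpi1 0. Each sequence is 5′ to 3′ on the gene's strand and ends 1 base before the start site. Matches on either strand are in capitals. The windows are chr7:138909507-138909756 (minus strand) for Bnip3, chr8:45999851-46000100 (minus) for Ankrd37, chrX:106186850-106187099 (plus) for Pgk1 and chr12:73907617-73907866 (plus) for Hif1a.
Bnip3: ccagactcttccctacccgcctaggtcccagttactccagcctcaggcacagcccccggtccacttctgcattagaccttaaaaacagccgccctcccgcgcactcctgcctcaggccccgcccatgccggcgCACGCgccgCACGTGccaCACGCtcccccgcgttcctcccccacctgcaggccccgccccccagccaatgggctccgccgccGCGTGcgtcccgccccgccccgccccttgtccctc
Ankrd37: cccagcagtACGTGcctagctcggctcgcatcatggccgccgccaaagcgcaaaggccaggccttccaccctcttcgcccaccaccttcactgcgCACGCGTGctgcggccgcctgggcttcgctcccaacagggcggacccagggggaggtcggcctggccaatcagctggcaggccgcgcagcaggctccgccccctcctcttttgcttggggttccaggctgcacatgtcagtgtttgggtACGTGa
Pgk1: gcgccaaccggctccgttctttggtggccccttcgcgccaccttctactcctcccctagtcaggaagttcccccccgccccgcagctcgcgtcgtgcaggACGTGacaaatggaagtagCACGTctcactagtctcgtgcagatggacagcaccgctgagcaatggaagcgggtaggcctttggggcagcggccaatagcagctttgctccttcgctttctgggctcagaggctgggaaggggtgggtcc
Hif1a: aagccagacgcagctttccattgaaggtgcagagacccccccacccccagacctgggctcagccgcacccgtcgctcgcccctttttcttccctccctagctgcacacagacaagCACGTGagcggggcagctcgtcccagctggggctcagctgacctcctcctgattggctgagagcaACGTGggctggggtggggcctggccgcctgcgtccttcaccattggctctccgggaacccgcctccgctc

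Marker levels that moved with the treatment stand beside these falls. Of 6 cell cycle genes, 5 fell in asGM1-negative cells. The summed CPM of 4 heat shock genes were 766 to 1418 under isotype and 369.6 to 729 under anti-PD-1, where 2 fell in asGM1-positive cells. The 5 tumour epithelium markers summed to 60.1 to 107 CPM under isotype and 15.6 to 31.1 under anti-PD-1, most of it Cdh1, which T cells also can express. Cdh1 was the only one of the 5 called under treatment, and it fell in both populations. Krt19 was at 0 in all 12 libraries, and Krt8, Krt18 and Epcam were at most at 2.53, 2.43 and 5.34 CPM. The 4 neutrophil markers summed to 3.25 to 7.29 CPM under isotype and 0.260 to 2.49 under anti-PD-1. Of 6 CD8 T cell genes, Cd8a and Cd3g themselves fell in asGM1-positive cells (-0.48 ± 0.09 and -0.57 ± 0.14), where the 6 summed to 8346 to 9869.8 CPM under isotype and 6752 to 7997 CPM under anti-PD-1. In asGM1-negative cells that sum was 7777 to 8694 and 7463 to 8776 CPM. Among 4 NK cell markers Klrb1c fell in asGM1-positive cells (-2.62 ± 0.57), and among 10 macrophage markers C1qa (-1.08 ± 0.24). Of 3 endothelial markers, Pecam1, which T cells also can express, rose in both populations (0.84 ± 0.15 and 1.01 ± 0.15). Kdr and Cdh5 passed in neither and went the other way in asGM1-negative cells. Their means there were 3.37 and 0.621 CPM under isotype and 0.647 and 0.0437 CPM under anti-PD-1. In asGM1-positive cells Kdr averaged 0.178 and 0.0384 CPM, and Cdh5 was at 0. The part of these in the members' changes was not tested.

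The second comparison asks what sets asGM1-positive apart from asGM1-negative cells. The number of members called depended on whether the pairing of libraries entered the fit: averaged over treatments it was 1 of 35 without the pair as a block and 10 of 35 with it. Without the block, under isotype, 1 member passed, Ldhb, which was lower in asGM1-positive cells (2.56 ± 0.263 against 5.10 ± 0.469 CPM, SD, n = 3; -1.0 ± 0.17, edgeR adjusted p = 0.0176); of all genes 0.364% were higher and 0.943% lower. It was lower in 3 of 3 pairs. It did not hold once isotype asGM1-negative replicate 1 or 2 was left out, without isotype asGM1-positive replicate 2 or 3 (adjusted p = 0.0538 to 0.0642) and with only the compared libraries fitted (0.115). Under anti-PD-1 edgeR called 0 of 35 members (0.927% and 0.654% of all genes higher and lower), with Ldhb at -0.20 ± 0.17. There 4 members were higher and 1 lower at an unadjusted p under 0.05, and DESeq2 called 1 member (4.53% of all genes) and limma voom 0.

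Within a treatment, libraries of the same number tended to deviate together, though anti-PD-1 replicates 2 and 3 did so less than the closest mismatched pairs. Calls under anti-PD-1 with the pair as a block thus rest on a pairing not established for these replicates. A fit with the pair as a block called more members. Under isotype, it called Gpi1 (0.33 ± 0.06 SE, edgeR adjusted p = 0.0230), Aldoc (0.51 ± 0.07, 0.00814) and Bnip3 (0.52 ± 0.07, 0.00942) higher in asGM1-positive cells and Ldhb lower (-1.0 ± 0.16, 0.0173), beside 1.83% and 2.11% of all genes. Each went the same way in 3 of 3 pairs. For Bnip3 the log2 ratios of the pairs were 0.42, 0.54 and 0.59, and for Aldoc 0.51, 0.45 and 0.56. Under anti-PD-1 it called Eno3 (0.74 ± 0.12, 0.0119) and Slc16a3 (0.44 ± 0.10, 0.0464) higher and Egln3 lower (-0.48 ± 0.10, 0.0346), beside 2.75% and 2.02% of all genes. Here too each moved one way in 3 of 3 pairs.

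Averaged over treatments, the unblocked fit called Ldhb alone (-0.60 ± 0.12, edgeR adjusted p = 0.0183; 1.55% and 2.04% of all genes higher and lower). Leaving out isotype asGM1-negative replicate 2 (0.0516), anti-PD-1 asGM1-positive replicate 2 (0.0536) or both anti-PD-1 replicate 2 libraries (0.0854) ended that call. With the pair as a block, 8 members were higher in asGM1-positive cells and 2 lower, beside 4.43% and 4.16% of all genes. Those higher were Gpi1, Gapdh, Eno1, Eno3, Pkm, Ldha, Slc16a3 and Bnip3, by 0.16 to 0.43 on the log2 scale, and those lower were Ldhb and Egln3. For Bnip3 and Gpi1 the average rests on isotype. Under anti-PD-1, Bnip3 was lower in 3 of 3 pairs (log2 ratios -0.25, -0.02 and -0.003). Gpi1 was lower there in 2 of 3 (-0.04, -0.05 and 0.09). For Eno1, Pkm and Ldha, at 0.19 ± 0.04, 0.19 ± 0.04 and 0.17 ± 0.03, asGM1-positive cells were higher in 3 of 3 pairs under either treatment.

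By class, the unblocked medians under anti-PD-1 were 0.14 for the glycolytic members (18 of 23 above 0) and -0.11 for the HIF targets outside glycolysis (9 of 11 below 0), against -0.01 over all genes. Under isotype they were 0.13 and 0.01, against 0.00. In asGM1-positive libraries under anti-PD-1, 9 glycolytic members were higher without overlap, beside 10.2% of all genes. Without both anti-PD-1 replicate 2 libraries the glycolytic median under anti-PD-1 was 0.02. Macrophage markers rose with the asGM1-positive population (8 of 10 under isotype, 7 of 10 under anti-PD-1), as did 5 of 6 cell cycle genes under anti-PD-1. Other markers were lower in asGM1-positive cells. Of 6 plasmacytoid dendritic cell markers, 4 were lower under isotype and 3 under anti-PD-1, among them Siglech at a mean of 0.0787 against 58.6 CPM under isotype and 0.187 against 30.5 CPM under anti-PD-1. Of 4 CD4 and regulatory T cell markers, 1 was lower under isotype, 2 under anti-PD-1 and 3 averaged, with Foxp3 at a mean of 3.22 against 29.0 CPM under isotype and 5.63 against 39.4 CPM under anti-PD-1. The B cell marker Cd79b was also lower under isotype, at 2.38 against 6.62 CPM. The part of all these in the members' values was not tested.

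**Figure D5:**
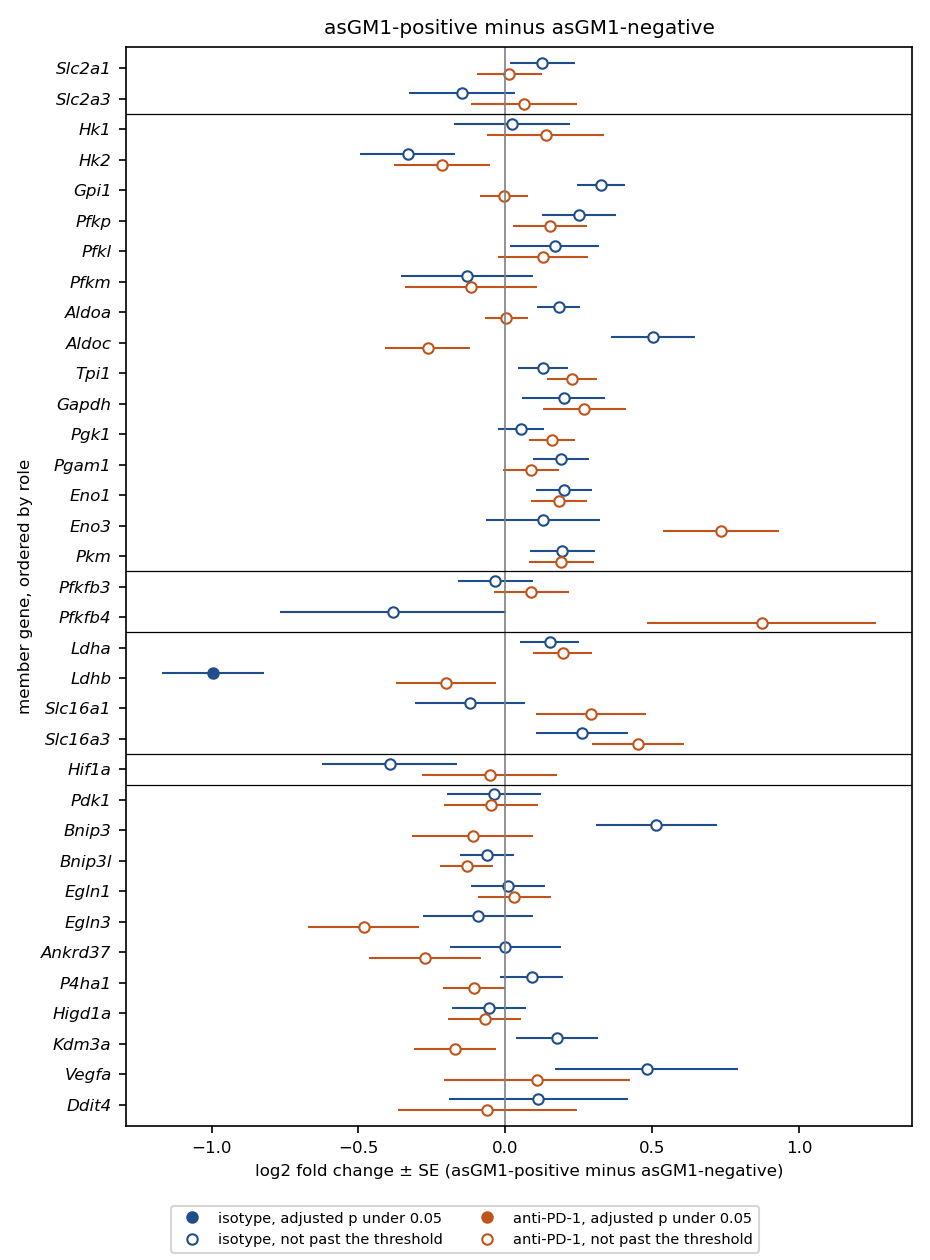
Log2 fold change ± SE of each member, asGM1-positive minus asGM1-negative, under isotype (blue) and anti-PD-1 (orange), from the fit without the pair block; filled points have an edgeR adjusted p under 0.05. Ldhb under isotype, at -1.0, is the single filled point, and most enzymes lie slightly right of 0.

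The third comparison asks whether the response to anti-PD-1 differs between the populations. The interaction called 0 of 35 members and 0 of 18657 genes by edgeR (0% of all genes), while 5 members and 1329 genes had an unadjusted p under 0.05. DESeq2 called 136 genes (0.729%) and 0 members, as did limma voom of the members. The members with the smallest p were Aldoc (-0.77 ± 0.20, edgeR adjusted p = 0.442), Ldhb (0.79 ± 0.24, 0.493) and Gpi1 (-0.33 ± 0.12, 0.559). None of the 3 passed; the fitted falls of Aldoc and Gpi1 were larger in asGM1-positive cells. For Aldoc the order of the populations turned: asGM1-positive cells were higher in 3 of 3 pairs under isotype and lower in 3 of 3 under anti-PD-1. Bnip3 turned likewise, though its log2 ratios under anti-PD-1 were only -0.25, -0.02 and -0.003. By class the median interaction was 0.07 for glycolytic members and -0.20 for HIF targets (10 of 11 below 0), against 0.01 over all genes.

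Genes of the same pathways outside the 35 members were lists chosen for their role and went both ways among HIF targets. Of 10 tested genes of the HIF machinery, 2 rose and 1 fell under anti-PD-1 in asGM1-negative cells, and 1 rose in asGM1-positive cells. Epas1, for HIF-2 alpha, was at 3.69, 2.46 and 2.75 CPM under isotype and 8.26, 11.9 and 5.89 CPM under anti-PD-1 in asGM1-negative cells. Its asGM1-positive values were 1.17, 0.847 and 1.92 and 6.19, 13.0 and 8.32 CPM. It rose in both (1.55 ± 0.37 and 2.80 ± 0.39, edgeR adjusted p = 0.0240 and 0.00142). Hif1an, for the asparagine hydroxylase that restrains HIF, rose in asGM1-negative cells (0.51 ± 0.12), and Eloc, for elongin C of the complex that degrades HIF alpha, fell there (-0.39 ± 0.10).

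Of 20 other hypoxia targets, 4 rose and 4 fell in asGM1-negative cells, and 2 rose and 5 fell in asGM1-positive cells. Rora, for a nuclear receptor, rose by 1.86 ± 0.18 and 2.06 ± 0.18, and Mxi1, for an antagonist of MYC, by 1.06 ± 0.14 and 0.88 ± 0.14. Ndrg1, a stress-response gene, rose in asGM1-negative cells (1.12 ± 0.25). Mif, for a cytokine, fell from 403 ± 74.8 to 233 ± 27.7 CPM in asGM1-negative and from 370.2 ± 30.2 to 238 ± 36.5 CPM in asGM1-positive cells (SD, n = 3). Fam162a fell in both populations (-0.74 ± 0.10 and -0.54 ± 0.10). Adm, for adrenomedullin, had 134 counts over the isotype and 0 over the anti-PD-1 libraries of asGM1-negative cells, at least 41.5-fold lower against a floor of 3 counts over the group. In asGM1-positive cells it had 203 and 3 counts. Targets of HIF thus moved in both directions, and Rora was also lower in asGM1-positive than asGM1-negative cells (-1.15 ± 0.17 under isotype and -0.95 ± 0.17 under anti-PD-1).

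Of 17 tested glycolysis genes outside the members, 0 rose and 2 fell in asGM1-negative cells, Pgam2, for the mutase of muscle (-1.54 ± 0.38), and Eno1b (-0.35 ± 0.10). Eno1b is a near-identical copy of the member Eno1, at 6.56 to 7.52% of it, and whether it holds reads of Eno1 was not tested. In asGM1-positive cells edgeR called 0, with 4 at an unadjusted p under 0.05. Of 12 genes for the entry of pyruvate into mitochondria, 0 passed in any of 7 contrasts by edgeR, where 3 of 84 gene and contrast pairs had an unadjusted p under 0.05. Among 7 genes of the pentose phosphate pathway, which branches off at glucose-6-phosphate, Pgd fell in both populations (-0.32 ± 0.08 and -0.46 ± 0.08) and Tkt in asGM1-negative cells (-0.47 ± 0.09). Of 11 upstream regulators of glycolysis, Myc, which drives glycolytic genes in activated T cells, was at 76.5, 59.8 and 104 CPM under isotype and 32.4, 41.3 and 44.7 CPM under anti-PD-1 in asGM1-negative cells and fell (-1.02 ± 0.24, edgeR adjusted p = 0.0219). In asGM1-positive cells it was at 80.3, 45.9 and 83.5 and 42.5, 48.6 and 43.5 CPM (-0.64 ± 0.24, adjusted p = 0.141). Tsc1, for an inhibitor of mTORC1, rose in both (0.63 ± 0.13 and 0.51 ± 0.13), and Irf4, for a factor of activated T cells, in asGM1-positive cells (0.65 ± 0.17). Mycn had 174 counts over the isotype and 6 over the anti-PD-1 libraries of asGM1-positive cells, and fell there. Its isotype values, 0.344, 0.389 and 1.92 CPM, came mostly from replicate 3. In asGM1-negative cells it had 255 and 22 counts, 10.8-fold lower, and did not pass. The libraries there read 1.17, 0.974 and 1.65 CPM under isotype and 0.0504, 0.272 and 0.0459 CPM under anti-PD-1.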

How the data were processed

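RNA from CD8+ T cells was sequenced in 12 libraries, 3 in each of 4 groups, with groups taken from the sample titles. Extraction used TRIzol, and TruSeq mRNA and SMARTer ultra-low-input kits were named, per the labels' protocols. The submitters' processing notes name HISAT2, StringTie and build mm39, with neither versions nor an annotation given in the sources used here. The deposited file is a single gene table of counts, all whole numbers. It was not stated whether StringTie's coverage or single reads gave these counts, or whether strand was used, so near-identical copies, overlapping and antisense genes are uncertain.

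Counts were tested with edgeR 4.0.16 (R 4.3.3): quasi-likelihood F tests in 1 fit of 12 libraries with a mean per group, after the default expression filter (18657 of 56941 genes) and TMM scaling, with Benjamini-Hochberg adjustment over all genes tested and a threshold of 0.05. Residual degrees of freedom were 8, the median prior degrees were 3.71, and the common biological coefficient of variation was 0.336. The SE of a log2 fold change is its size over the square root of F. All CPM use the TMM factors. Exon lengths came from a GRCm38 annotation and promoter windows from RefSeq GRCm38.p6, matched by gene, not from mm39. The procedure was run on simulated counts drawn independently for each library. That setting lacks the shared deviations of same-numbered libraries, and no support is drawn from it here.

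Replicate libraries differed beyond counting noise, with chi-square values of 41.4 to 115 per degree of freedom. To see whether replicate numbers pair libraries, deviations from the group means were correlated. Within a treatment, all 6 same-numbered pairs of populations had r from 0.209 to 0.705. The 12 differently numbered pairs had r from -0.56 to 0.264, the highest being anti-PD-1 asGM1-negative replicate 2 with asGM1-positive replicate 3, above the same-numbered pairs of replicates 2 (0.231) and 3 (0.209). Differently numbered pairs across treatments, 24 in all, reached 0.404. The isotype pairs (0.405, 0.492 and 0.677) and pair 1 under anti-PD-1 (0.705) lay above that. Pairing is therefore not established for anti-PD-1 replicates 2 and 3. Across treatments, 12 same-numbered pairs had r from -0.43 to 0.233, so no pairing was seen over the 9257 genes correlated. Single genes could still follow the number: Ldha-ps did, and Hspa1a and Dnajb1 were highest in replicate 2 of every group. An effect of the number across treatments was therefore not excluded. The main fit has no block.

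Alternatives were DESeq2 1.42.0, limma 3.58.1 voom, RLE and upper-quartile scaling, no filter, only the compared libraries, the replicate blocks, leaving out libraries and, chosen after seeing the data, summed pairs. The members and lists were chosen with earlier results of these data known. Any member could be named; values per library are given for those past the threshold in any contrast and the 3 smallest p per contrast, and genes of other lists are named only where past it, at most 6 per list and contrast.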

Additional observations from a re-analysis of the deposited data

How the results depend on the processing

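No value changed sign under any alternative where it was called. Under DESeq2, members called between populations numbered 3 under isotype, 1 under anti-PD-1 and 5 averaged. Of these, a share of all genes is given here for anti-PD-1 only (4.53%). The 3 and 5 stand without one, and nothing is read from them. The same holds for the counts below with the number as a block, only the compared libraries or single libraries left out. With the pair within a treatment as a replicate block they numbered 4, 3 and 10, and with the number as a replicate block across all 4 groups 1 under anti-PD-1 and 2 averaged. The pair block changed no other call of a member than those given above. With only the compared libraries fitted, 0 were called under isotype. Without both anti-PD-1 replicate 2 libraries, which stood apart in heat shock RNA, 0 were called in the averaged population contrast, 8 in asGM1-negative cells under treatment, and the glycolytic median under anti-PD-1 was 0.02. Leaving out each library in turn gave 0 to 1 calls between populations under isotype, 0 under anti-PD-1 and 0 to 1 averaged. For treatment it gave 8 to 13 in asGM1-negative cells, 13 to 17 in asGM1-positive cells and 18 to 21 averaged. The 8 came without isotype asGM1-negative replicate 1. Single results were followed for members past the threshold in the main fit and, per contrast, the 3 members with the smallest p. Each was counted once per alternative. Of these outcomes, 469 kept their side of the threshold, 28 lost it and 13 gained it under the other alternatives. Leaving out 1 library, 683 kept it and 73 lost it. Calls gained by members not followed, such as Bnip3 under isotype with the pair block, are not in these totals. The lowest count of any member in a library was 41, against the floor of 3.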

Other observations

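The genes outside the list whose log2 CPM were most like the mean standardised level of the 23 glycolytic members over the 12 libraries were Gm4735 (Pearson r = 0.978), Eno1b (0.966), D17H6S56E-5 (0.966), Pgam1-ps2 (0.951) and Cyb5b (0.950), out of 9225 genes whose mean log2 CPM reached 3. Eno1b and Pgam1-ps2 are near-identical copies of members; whether reads were shared between them was not tested. For the 11 HIF targets outside glycolysis they were Pacc1 (0.871), Fndc3a (0.870), Seh1l (0.865), Scd2 (0.847) and Tesk2 (0.840). For Hif1a they were Fam117b (0.990), Stat3 (0.984), Stat5b (0.984), Nfatc3 (0.980) and Il12rb2 (0.979). The libraries share the treatment and population design, so these are descriptions.

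A copy of Ldha, Ldha-ps, singled out after its values were seen, followed the replicate number and neither treatment nor population. Replicate 2 held 434, 602, 360 and 434 counts in isotype asGM1-negative, isotype asGM1-positive, anti-PD-1 asGM1-negative and anti-PD-1 asGM1-positive cells. The other 8 libraries held 1 to 36 counts. Ldha itself was lowest in replicate 2 in both isotype groups (3487 and 3975 CPM) and highest in replicate 2 in both anti-PD-1 groups (2818 and 3359 CPM), and Ldha-ps was at most at 0.226% of Ldha. The cause was not tested.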
